A study of Homo sapiens with 3 samples.

Results

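A processed pseudogene is a copy of an mRNA that was reverse transcribed and inserted elsewhere in the genome, and 231 transcripts of this type were followed here in THP-1 cells treated with the LSD1 inhibitor GSK-LSD1. The members are the rows of the raw count table that GENCODE v44 lists as processed_pseudogene and that held 10 or more counts in at least 1 of the 3 libraries, without ANXA2P2. They were thus selected on their measured counts, out of 10131 processed pseudogene transcripts in the table and out of 9609 features of any type with 10 or more counts. Grouped by the parent in the gene name, 48 members (29 of the large and 19 of the small subunit, from 31 parent genes) carried the name of a cytoplasmic ribosomal protein gene and 183 carried another name. Among the latter, 36 had only a clone identifier and no parent name. Most processed pseudogenes were not read at all: 7871 transcripts stood at 0 in every library and 2028 reached 1 to 9 counts. At the threshold, 27 members sat just inside the rule with a highest count of 10, against 25 transcripts just outside it with 9. Of those with 9, FTH1P3 (9, 3 and 7 counts), PSMA6P1 (9, 7 and 8) and MEIS3P2 (9, 6 and 8) come first by transcript identifier.

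THP-1 is an established human monocytic leukemia line that carries the MLL-AF9 fusion. RNA-seq of ribosomal-RNA-depleted total RNA gave 1 library of untreated cells (0 h), 1 after 8 h and 1 after 24 h of 0.2 µM GSK-LSD1, with 1475938, 1310912 and 1444011 counts. Both treated libraries were compared with the same untreated library, so the 2 comparisons are not independent of each other. With 1 library per time point there was no replicate check and no test could be made. The 95% intervals given cover counting error only, and they are exact except for the Wilson intervals of shares. No molecular identifiers are named in the protocol, so reads are not independent molecules. In bulk RNA, fewer cells that hold a transcript and less of it per cell cannot be told apart. Defining markers of the line could be read only in part: of 8 monocytic markers, 3 had rows under their own names. CD33 held 67, 44 and 45 counts, CSF1R 9, 3 and 3, and ITGAM 1, 2 and 1. Markers of other cell types (erythroid, T cell, B cell and epithelial), of which 11 of 13 had rows, summed to 2, 0 and 2 counts. Coding transcripts had named rows for 0 of the monocytic and 2 of the other markers, so low counts say little about absence.

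Most processed pseudogenes have no promoter of their own. Genes that are strongly transcribed in the germ line, such as those for ribosomal proteins, translation factors and glycolytic enzymes, have left many copies, and a young copy can still be nearly letter for letter the same as its parent mRNA. A short read from such a stretch fits the parent and the copy alike, so a count on a copy can hold reads of the parent, of another copy or of a gene in whose intron the copy lies. How the counting treated reads that fit several places is not given in the sources used here.

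The best-counted member was RPS28P7, a copy of a small-subunit gene. It lies on chromosome 11 of hg38 at chr11:82689559-82689768 (forward strand) and held 220, 260 and 289 counts at 0, 8 and 24 h. Its 210 bases are printed beside those of RPS28P4, a second copy of the same gene at chr2:231256097-231256306 (forward strand), with capitals for each base that differs from the RPS28 transcript. RPS28P7 had 0 differences and RPS28P4 had 1, and RPS28P4 held 27, 19 and 28 counts. The 3 rows under the name of RPS28 itself stood at 0, but 0 of them were protein-coding, so they do not show the level of the parent mRNA. How reads were shared among the parent and its copies was not tested.
RPS28P7: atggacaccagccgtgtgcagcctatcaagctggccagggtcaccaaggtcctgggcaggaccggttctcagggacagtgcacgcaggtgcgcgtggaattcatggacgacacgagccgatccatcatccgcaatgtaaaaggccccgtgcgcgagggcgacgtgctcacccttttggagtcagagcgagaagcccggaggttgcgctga
RPS28P4: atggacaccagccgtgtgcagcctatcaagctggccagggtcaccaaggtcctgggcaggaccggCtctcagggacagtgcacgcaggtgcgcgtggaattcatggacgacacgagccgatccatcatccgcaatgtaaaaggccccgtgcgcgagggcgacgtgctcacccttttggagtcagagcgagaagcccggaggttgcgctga

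The shortest members came from RPL41, which encodes a very short, basic protein of the large subunit. RPL41P1 (chr20:21755270-21755350, forward strand) spans 81 bases, and a clone-named member, ENSG00000279483 (chr7:137513859-137513933, forward strand), spans 75. They are shown because the first is grouped with the ribosomal proteins and the second, by its name alone, is not. No base of either is in capitals, since neither differs from the RPL41 transcript.
RPL41P1: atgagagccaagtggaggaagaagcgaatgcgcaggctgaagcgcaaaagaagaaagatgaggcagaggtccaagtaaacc
ENSG00000279483: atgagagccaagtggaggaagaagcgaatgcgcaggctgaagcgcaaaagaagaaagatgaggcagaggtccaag
The shorter sequence is contained whole in the longer from its first base on. RPL41P1 had 23, 25 and 17 counts and ENSG00000279483 had 27, 19 and 31, and every ratio to 0 h had an interval that spanned 0. In all, 8 of the 36 clone-named members had a ribosomal protein gene as their best coding match. Together these held 208, 161 and 214 counts, with a log2 ratio to 0 h of -0.09 (-0.39 to 0.22) at 8 h and 0.13 (-0.15 to 0.41) at 24 h.

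Likeness to a coding transcript was higher in the better-counted classes of annotated processed pseudogenes. The median identity to the best-matching coding transcript was 87.0% for transcripts at 0, 92.6% for those with 1 to 9 counts and 97.2% for the members. The longest stretch without a difference had a median of 35, 62 and 132 bases in the same order. Ribosomal protein members were closer still, at a median identity of 98.4% and a longest exact stretch of 161 bases, whereas ribosomal protein copies at 0 counts had 87.7% and 36 bases. Longer copies can collect more reads and can hold longer exact stretches, and median length also grew, from 498 to 628.5 to 826 bases, so length and likeness were not separated. For ribosomal protein names the median length went from 458 to 483 to 568.5 bases. The other members, less alike, had a median of 960. Since the members were chosen by their counts, these medians describe the selection. Of the 227 members that could be aligned to a parent, 85 had 98% identity or more, 33 had under 90% and 13 were identical over the aligned stretch, RPL36AP37 and H3P6 among them. The range was wide. RPL13P8, a copy of a large-subunit gene with 11, 5 and 9 counts, had an identity of 71.5%, and RPL17P19, with 12, 9 and 15, had 73.8%.

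**Figure D1:**
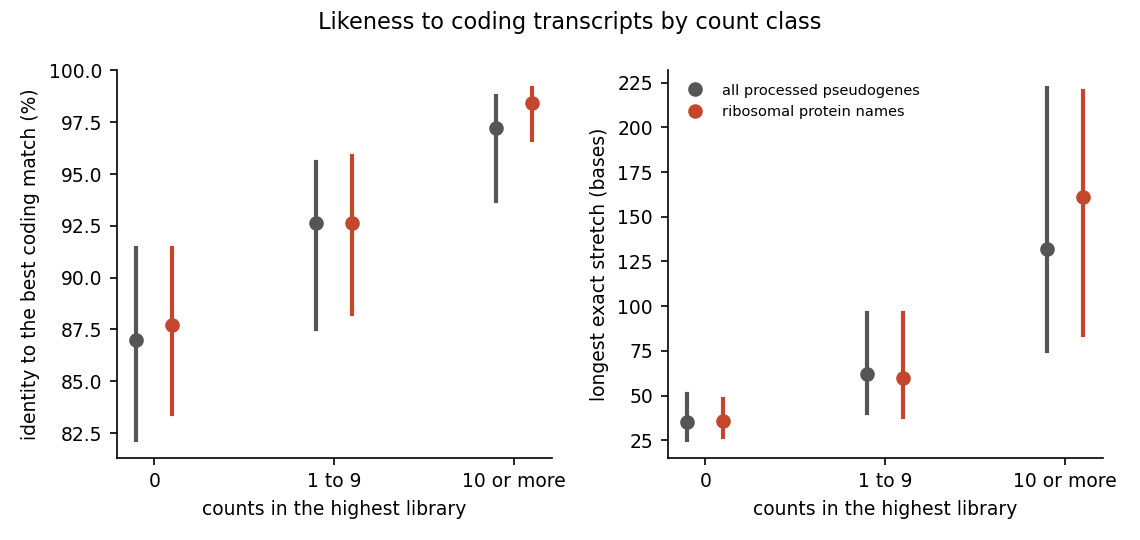
Identity to the best coding match (left, percent) and longest exact stretch (right, bases) of processed pseudogenes by the counts in their highest library, with points for medians and bars from the lower to the upper quartile. Median identity goes from 87.0% at 0 counts to 97.2% among the members, and the ribosomal protein names end at 98.4%.

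Ribosomal protein members held a larger share of both treated libraries than of the untreated one. Their summed counts were 1207, 1329 and 1507, which is 0.0818% (95% Wilson interval 0.0773 to 0.0865), 0.101% (0.0961 to 0.107) and 0.104% (0.0992 to 0.110) of all counts. After TMM scaling, which sets the libraries to a common level over all features, the log2 ratio of the sums was 0.42 (0.31 to 0.54) at 8 h and 0.41 (0.30 to 0.52) at 24 h against 0 h. Between 8 h and 24 h it was -0.02 (-0.12 to 0.09). The other members summed to 3765, 3503 and 4001 counts, with log2 ratios of 0.18 (0.11 to 0.25) and 0.17 (0.11 to 0.24). For the ribosomal protein group the interval stayed above 0 under total counts without mitochondrial transcripts, at 0.31 (0.19 to 0.42) at 8 h and 0.35 (0.24 to 0.46) at 24 h. For the other members that scaling gave 0.065 (-0.0021 to 0.13) at 8 h, an interval that spans 0, and 0.12 (0.053 to 0.18) at 24 h, so their 8 h difference depended on the scaling. The count rule bears on these sums, since 13 of the 48 and 44 of the 183 had under 10 counts at 0 h. They entered through a treated library. All processed pseudogene rows, with no count rule and with ANXA2P2, summed to 7600, 7544 and 8535 counts. Their log2 ratios to 0 h were 0.27 (0.23 to 0.32) at 8 h and 0.25 (0.21 to 0.30) at 24 h. Whether any of these differences is beyond the spread between cultures cannot be read from 1 library per time point.

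Member by member, most ribosomal protein copies were on the higher side. Their median log2 fold change, computed with a prior count of 2, was 0.34 at 8 h and 0.37 at 24 h, beside 0.01 and -0.04 over all 9609 features. At 8 h, 36 of 48 were higher than at 0 h (50.7% of all features were), 5 were higher by more than 1 on the log2 scale (4.81% of all features) and 0 were lower by more than 1 (5.82%). The counting interval lay wholly above 0 for 5 (12.6% of all features) and wholly below 0 for 0 (8.84%). At 24 h, 38 of 48 were higher (47.2% of all features), 7 by more than 1 (6% of all features), and 0 were lower by more than 1 (5.82%). The interval was above 0 for 8 (12% of all features) and below 0 for 0 (14.1%). The share with an interval above 0 at 8 h was near that of all features, and the share below 0 was under it. Such shares depend on depth, and 23 of the 48 reached 20 counts in a library, beside 6558 of all 9609 features. A member could pass the count rule through a single library: 9 ribosomal protein members reached 10 counts only at 24 h, 2 only at 8 h and 2 only at 0 h, so part of the excess of higher members at 24 h was fixed by the selection. Among the 35 with a mean of 10 or more counts over the libraries, a filter that does not favour any 1 of them, 27 were higher at 8 h and 27 at 24 h, with medians of 0.35 and 0.24, and those higher by more than 1 fell to 2 and 3. Of all 7948 features with such a mean, 53.2% and 47.5% were higher. Large and small subunits had overlapping intervals, with summed log2 ratios of 0.35 (0.18 to 0.51) and 0.45 (0.31 to 0.60) at 24 h.

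The other 183 members had smaller medians, 0.12 at 8 h and 0.19 at 24 h. Against the shares of all features given for the ribosomal protein members, those past 1 were near the background at 8 h. At 8 h 107 were higher (50.7% of all features), 11 by more than 1 (4.81%) and 7 lower by more than 1 (5.82%), and the interval was above 0 for 12 and below 0 for 2. At 24 h 114 were higher (47.2%), 16 by more than 1 (6%) and 10 lower by more than 1 (5.82%), and the interval was above 0 for 18 and below 0 for 7. The shares with an interval above or below 0 were under those of all features at both times. Intervals are wider at low counts, and 70 of the 183 reached 20 counts in a library, beside 6558 of all 9609 features. These shares therefore do not show that the members changed less. Of these members, 29 reached 10 counts only at 24 h, 7 only at 8 h and 20 only at 0 h. Among the 122 with a mean of 10 or more counts, 77 were higher at 8 h and 76 at 24 h, with medians of 0.20 and 0.15. Of all features with such a mean, 53.2% and 47.5% were higher. From 8 h to 24 h, 27 of 48 ribosomal protein members and 94 of 183 others were higher, where 44.6% of all features were. With DESeq2 size factors 66.7% and 60.7% were higher, beside 54.2% of all features under that scaling, and the ratio of the other members' sums, -0.01 (-0.07 to 0.06) with TMM, became 0.079 (0.013 to 0.145), an interval above 0. With TMM, 3 and 11 were higher by more than 1 (3.56% of all features), 0 and 5 were lower by more than 1 (2.29%), 0 and 6 had an interval above 0 (3.74%) and 0 and 3 had one below 0 (7.83%). Part of the excess of higher members from 8 h to 24 h was fixed by entry through 24 h alone. With a mean of 10 or more counts, 17 of 35 and 56 of 122 were higher, beside 42% of such features. Their medians were -0.04 and -0.03.

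**Figure D2:**
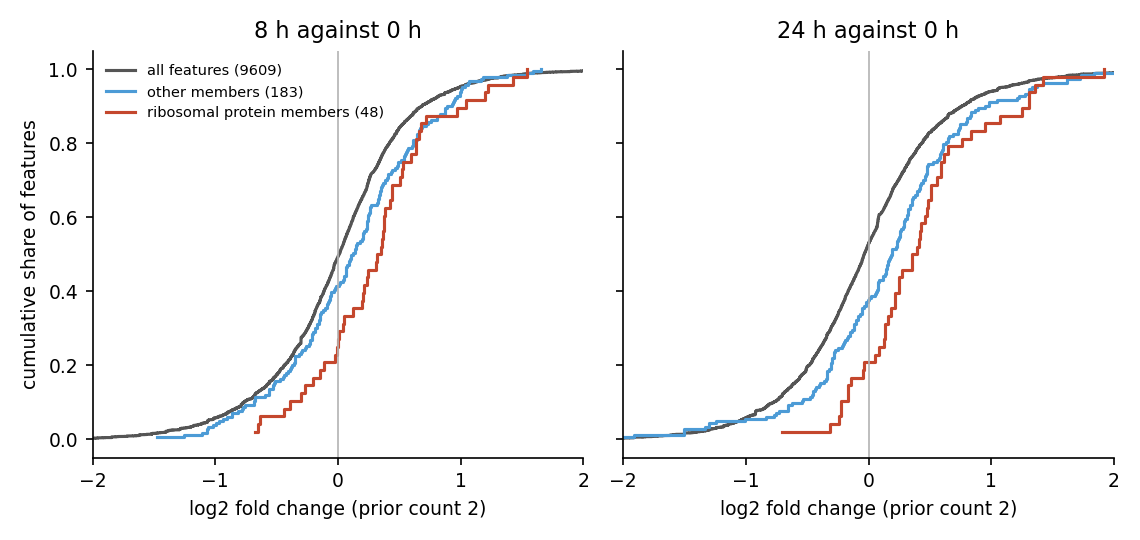
Cumulative share of features by log2 fold change against 0 h (prior count 2), at 8 h (left) and 24 h (right), for all 9609 features, 183 other members and 48 ribosomal protein members. The curve of the ribosomal protein members lies to the right, with medians of 0.34 and 0.37.

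Transcripts left out by the count threshold had been chosen by low counts instead, and their sums give the same measure in other rows. The ribosomal protein copies under the threshold summed to 450, 551 and 580 counts, with log2 ratios of 0.58 (0.39 to 0.76) at 8 h and 0.45 (0.27 to 0.63) at 24 h. The remaining copies under the threshold summed to 2166, 2128 and 2374, with ratios of 0.26 (0.17 to 0.35) and 0.22 (0.13 to 0.30). These rows come from the same 3 libraries and can share reads with the members, so they are not independent of them.

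The ribosomal protein genes themselves could be followed only through transcripts listed under their own names. These 318 rows of 83 genes summed to 1129, 795 and 1030 counts. Their log2 ratio to 0 h was -0.22 (-0.36 to -0.09) at 8 h and -0.05 (-0.17 to 0.08) at 24 h. Of the 49 rows with 10 or more counts, 41 retain an intron and 8 have no defined coding sequence. In all, 14 were higher at 8 h and 20 at 24 h (50.7% and 47.2% of all features), and their medians were -0.25 and -0.07. At 8 h 0 of them were higher and 4 lower by more than 1, and at 24 h 1 was higher and 2 were lower, where 5.82% of all features were lower by more than 1 at either time. Retained-intron transcripts of all genes had a median of -0.19 at both times over 1080 rows, with 36.9% and 39.1% higher and 154 and 129 rows lower by more than 1, whereas 832 long non-coding RNA rows had medians of -0.00 and 0.02. These rows take in genes with no member, and parents with several members, such as RPS2 and RPL7A, had at most 1 count in a library under their own names, so the sums do not pair copies with parents. Spliced coding transcripts of the parents are in rows with protein accessions that the table does not pair with genes, and they were not analysed here.

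Translation factors, which help ribosomes start, extend or release a protein, were the largest named family after the ribosomal proteins, with 19 members. Their sums were 349, 383 and 443 counts, with log2 ratios of 0.42 (0.20 to 0.63) at 8 h and 0.43 (0.23 to 0.64) at 24 h, and 12 of 19 were higher at 8 h and 15 at 24 h (50.7% and 47.2% of all features). The most copies came from EEF1A1, which encodes the factor that brings aminoacyl-tRNA to the ribosome. Its 7 copies summed to 100, 148 and 171 counts, and the ratios were 0.85 (0.47 to 1.23) and 0.86 (0.50 to 1.23). Without them the other 12 translation factor copies summed to 249, 235 and 272, with ratios of 0.20 (-0.06 to 0.46) and 0.21 (-0.04 to 0.47), so the family's intervals above 0 rested on the EEF1A1 copies. At 8 h 6 of 7 were higher and at 24 h 7 of 7, though 3 of them had under 10 counts at 0 h and entered through a treated library. EEF1A1P11 had 11, 16 and 39 counts, a ratio of 1.91 (0.92 to 3.03) at 24 h, whereas EEF1A1P6 had 21, 41 and 41, a ratio of 1.05 (0.26 to 1.88). EEF1A1P11 was low at both earlier times and high at 24 h, and EEF1A1P6 was already at its level by 8 h. EIF3FP3, a copy of an initiation factor subunit, had 74, 64 and 56 counts and a ratio at 24 h whose interval spanned 0.

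The first 210 bases of both EEF1A1 copies are given because they show how well each can be told from its parent. Capitals mark bases that differ from the EEF1A1 transcript, 8 in EEF1A1P11 (chr1:96446930-96447139, forward strand) and 1 in EEF1A1P6 (chr7:22511790-22511999, reverse strand, within an intron of STEAP1B).
EEF1A1P11: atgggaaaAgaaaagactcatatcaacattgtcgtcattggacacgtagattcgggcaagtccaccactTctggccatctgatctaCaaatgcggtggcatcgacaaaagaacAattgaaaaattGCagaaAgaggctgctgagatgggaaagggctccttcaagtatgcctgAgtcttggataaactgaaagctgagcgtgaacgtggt
EEF1A1P6: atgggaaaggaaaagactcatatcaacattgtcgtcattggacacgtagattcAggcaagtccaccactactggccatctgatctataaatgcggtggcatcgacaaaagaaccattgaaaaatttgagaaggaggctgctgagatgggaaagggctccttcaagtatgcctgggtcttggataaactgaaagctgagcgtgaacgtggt
Over their whole length EEF1A1P11 was 97.3% identical to the parent, with a longest exact stretch of 119 bases, and EEF1A1P6 99.4%, with 322 bases.

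Among small-subunit copies, RPS28P7, described first, had ratios of 0.52 (0.26 to 0.79) at 8 h and 0.48 (0.22 to 0.74) at 24 h. The 4 members named for RPS2 summed to 203, 256 and 263 counts, with ratios of 0.62 (0.35 to 0.89) and 0.46 (0.19 to 0.73). RPS2P5 (134, 167 and 177 counts) held most of these and had a ratio at 24 h of 0.49 (0.16 to 0.82). With members that lack a parent name placed by best match, RPS2 had 7 members, of which 5 were higher at 8 h and 6 at 24 h. All features were higher in 50.7% and 47.2% of cases. The lower one at 24 h was ENSG00000228477, with 44, 31 and 28 counts. RPS2P7 had 4, 13 and 20 counts, so it entered through the treated libraries, and its ratio of 2.41 at 24 h had a wide interval (0.83 to 4.42). RPS15P4 had 19, 45 and 49 counts, with ratios of 1.53 (0.72 to 2.38) at 8 h and 1.45 (0.66 to 2.30) at 24 h. Both lie outside other annotated genes. Their first 210 bases are printed as small-subunit members with large ratios outside other genes, RPS2P7 at chr20:45641161-45641370 and RPS15P4 at chr2:171517507-171517716, both on the reverse strand. Capitals mark differences from the parent transcript, 6 mismatches in RPS2P7 and, in RPS15P4, 1 mismatch and an insertion of 9 bases.
RPS2P7: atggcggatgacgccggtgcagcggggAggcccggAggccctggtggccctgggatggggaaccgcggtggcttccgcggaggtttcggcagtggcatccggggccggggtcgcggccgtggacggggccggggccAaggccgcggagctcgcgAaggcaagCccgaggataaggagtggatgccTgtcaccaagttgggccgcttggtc
RPS15P4: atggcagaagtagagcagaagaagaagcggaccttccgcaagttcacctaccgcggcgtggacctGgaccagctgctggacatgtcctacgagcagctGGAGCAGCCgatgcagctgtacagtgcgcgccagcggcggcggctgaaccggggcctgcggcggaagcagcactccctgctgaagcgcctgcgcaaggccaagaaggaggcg

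The other ribosomal protein copies among the 8 members furthest above 0 at 24 h, of those with 20 or more counts that were also higher at 8 h, were RPL36AP37, with 12, 15 and 26 counts, and RPL13AP5, with 22, 30 and 42. RPL36AP37 is identical to RPL36A over all of its 321 bases and lies in an intron of PLEKHA7, and its ratio was 0.61 (-0.59 to 1.83) at 8 h and 1.20 (0.16 to 2.32) at 24 h. For RPL13AP5, which lies outside other genes, it was 0.73 (-0.11 to 1.60) and 1.02 (0.24 to 1.83), so at 8 h both intervals spanned 0. RPL7A left 5 members of low count, led by RPL7AP70 (14, 9 and 16 counts), which summed to 44, 41 and 61. At 24 h 5 of 5 were higher (47.2% of all features), but 3 of them had under 10 counts at 0 h and so entered through a treated library, and the ratio of the sums, 0.56, had an interval from -0.02 to 1.15. With TMM after the filter on low counts, a setting added after the data were seen, it was 0.58 (0.002 to 1.18), just above 0. RPL18AP3 (72, 68 and 79 counts) and RPS2P46 (60, 64 and 60) each had an interval at 24 h that spanned 0.

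**Figure D3:**
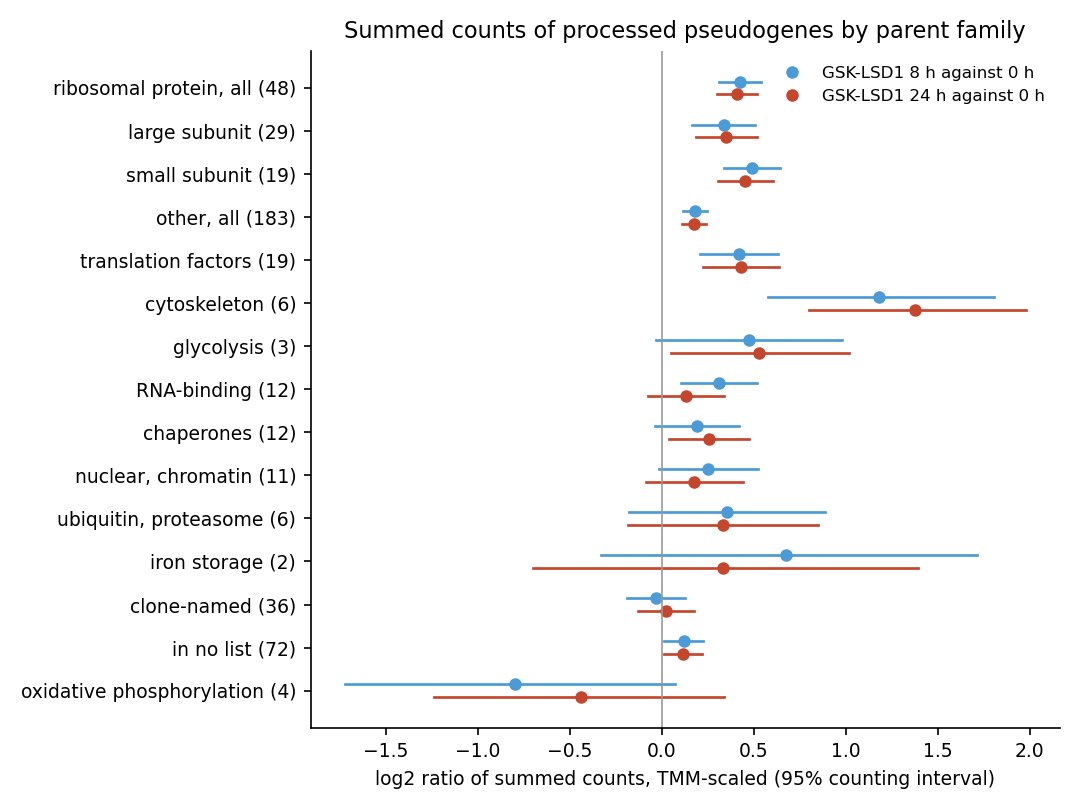
Log2 ratios of summed counts to 0 h after TMM scaling, at 8 h and 24 h, by parent family with the number of members in brackets and bars for 95% counting intervals. Ribosomal protein, translation factor and cytoskeleton families lie above 0 with their intervals at both times. So do the 72 named copies in no listed family, at 0.12 (0.01 to 0.23) and 0.11 (0.01 to 0.22), though with total counts theirs span 0 at both times (0.007, -0.099 to 0.113, and 0.058, -0.045 to 0.161), and clone-named members lie at -0.03 and 0.02.

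The family with the largest ratio rested on few counts. The 6 copies of cytoskeleton genes summed to 36, 67 and 88 counts, a ratio of 1.18 (0.57 to 1.81) at 8 h and 1.38 (0.80 to 1.98) at 24 h, and 6 of 6 were higher at 24 h (47.2% of all features). A rise was built into this by the selection, since 5 of the 6 had under 10 counts at 0 h and entered through a treated library, so the values are given as a description. The list also leaves out copies of CAP1 and MSN, whose proteins act on or bind actin, and with these 3 the sums were 199, 270 and 278, with ratios of 0.72 (0.454 to 0.995) and 0.57 (0.30 to 0.84). KRT8P46, a copy of a keratin gene within an intron of MANBA, had 17, 30 and 28 counts, with a ratio of 1.10 (0.20 to 2.05) at 8 h and 0.81 (-0.11 to 1.77) at 24 h. KRT8P39 had 5, 4 and 15 counts and was higher at 24 h alone. ARPC3P3, from a subunit of the Arp2/3 complex that branches actin filaments, had 3, 11 and 10, and it overlaps an exon of ENSG00000250519. TMSB4XP8, from the gene of the actin-binding peptide thymosin beta 4, had 2, 9 and 12 counts, so it entered only through 24 h and its difference from 0 h was set by the rule. Its 135 bases at chr4:90838903-90839037 (reverse strand) are shown since they differ from the TMSB4X transcript at the 1 base in capitals.
TMSB4XP8: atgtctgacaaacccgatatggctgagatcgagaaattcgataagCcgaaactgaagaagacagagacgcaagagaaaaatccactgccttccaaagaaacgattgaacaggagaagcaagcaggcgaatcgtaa

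GAPDHP75 is an example at the other end of likeness. It lies outside other genes on chromosome 1, had 24, 43 and 43 counts, and was 80.9% identical to GAPDH, the glycolytic enzyme gene it is named for, with a longest exact stretch of 27 bases. Its ratio was 1.13 (0.37 to 1.91) at 8 h and 0.93 (0.18 to 1.71) at 24 h. In the stretch of 210 bases at chr1:189133081-189133290 (reverse strand), 37 bases differ from the parent and 1 is inserted, all in capitals. A further 2 bases of the parent are missing from it, which capitals cannot show.
GAPDHP75: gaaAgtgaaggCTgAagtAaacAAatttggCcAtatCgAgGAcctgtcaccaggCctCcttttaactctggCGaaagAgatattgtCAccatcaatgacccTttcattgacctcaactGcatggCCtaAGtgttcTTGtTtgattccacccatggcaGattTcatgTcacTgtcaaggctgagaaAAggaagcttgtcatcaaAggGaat
Spearman's rho between identity and log2 fold change at 24 h was -0.02 across 227 members, 0.12 across the 48 ribosomal protein members and -0.07 across 179 others, where members share libraries and can share reads. For the longest exact stretch it was -0.01, 0.24 and -0.05. Ribosomal protein members under 95% identity (11), from 95% to 98% (9) and of 98% or more (28) had medians of 0.42, 0.24 and 0.38 at 24 h and of 0.20, 0.01 and 0.37 at 8 h. At 8 h, 66 of the 93 members with an exact stretch of 150 bases or more were higher and 77 of the 134 with a shorter one, beside 50.7% of all features. At 24 h these were 64 of 93 and 86 of 134, beside 47.2%.

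**Figure D4:**
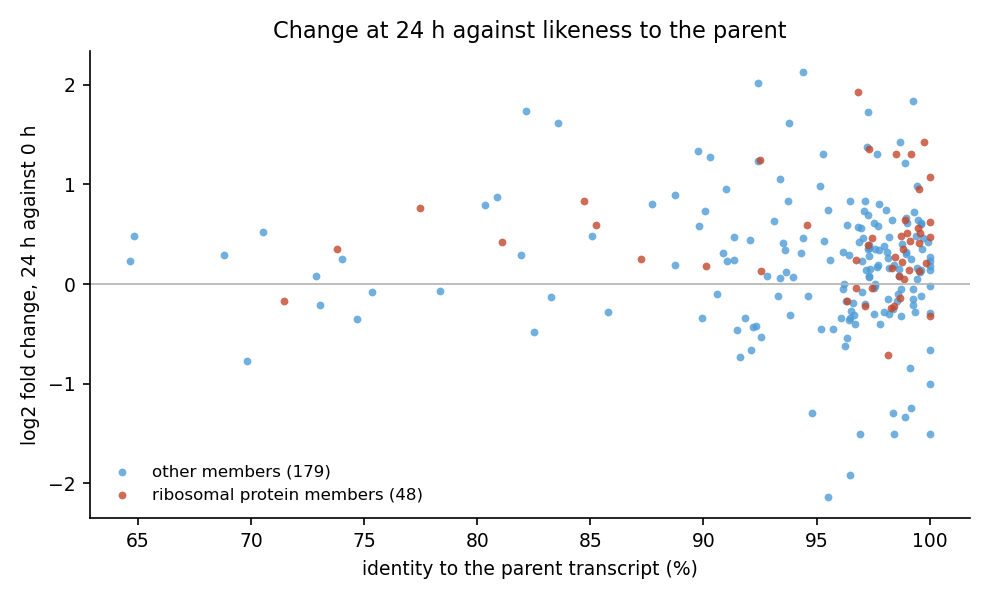
Log2 fold change at 24 h against 0 h (prior count 2) by identity to the parent transcript in percent, 1 point per member, for 48 ribosomal protein members and 179 others. The points spread above and below 0 at every identity, with rho of -0.02 over all 227.

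The remaining well-counted members came from various parents. PPIAP29, a copy of the gene for the folding enzyme cyclophilin A, had 185, 180 and 205 counts, and its ratio at 24 h of 0.23 had an interval from -0.06 to 0.53. CAP1P1, from an actin-regulating protein, had 118, 149 and 121 counts, high at 8 h only, with ratios of 0.62 (0.26 to 0.98) at 8 h and -0.50 (-0.86 to -0.14) from 8 h to 24 h. HNRNPCP2, from a nuclear RNA-binding protein, had 97, 129 and 121, with 0.70 (0.30 to 1.09) at 8 h and 0.41 (0.01 to 0.81) at 24 h, where total counts gave 0.35 (-0.05 to 0.75). Both CAP1P1 and HNRNPCP2 lie in introns on the strand of the host gene, ROBO2 and C2orf88. RCN1P2, from a calcium-binding protein of the endoplasmic reticulum, had 13, 23 and 31 counts and a ratio at 24 h of 1.34 (0.36 to 2.40), but exons of TPT1-AS1, on the other strand, cover 85.9% of its bases. DUSP8P5, from a phosphatase of MAP kinases, had 11, 19 and 21, with 1.02 (-0.10 to 2.22). Copies of YWHAZ, which encodes a 14-3-3 protein, gave 5 members that summed to 77, 74 and 93 counts, and YWHAZP4 at their head had 20, 20 and 27.

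Among members with 20 or more counts, 57 were higher and 15 lower at both times, which is 61.3% and 16.1% of the 93 beside 37.8% and 38.9% of all 6558 features with as many counts. Both comparisons share the 0 h library, so agreement between them is no independent support. The 8 furthest on each side at 24 h were named. The 8 from the larger pool had a counting interval above 0 in 7 cases and the 8 from the smaller pool one below 0 in 1 case, which describes the choice. By name, 4 of the 8 higher ones and 0 of the 8 lower ones were ribosomal protein copies, where 23 of all 93 were. However, the clone-named ENSG00000228477, among the lower ones, had RPS2 as its best match (92.5% identity). The interval below 0 belonged to CDC20P1, a copy of the gene for an activator of the anaphase-promoting complex, with 80, 63 and 51 counts and a ratio of -0.56 (-1.10 to -0.04) at 24 h. An exon of LINC02893 on the other strand covers 16.9% of it. The other lower ones had ratios from -0.85 to -0.42. ENSG00000230715 (23, 10 and 12 counts) is 1 of 3 clone-named members with no coding match that lie side by side on chromosome 7 between 128651185 and 128654722, over exons of ENSG00000242588. ENSG00000235859 (57, 34 and 38), whose best match is the proteasome gene PSMC5, LRRFIP1P1 (40, 24 and 27) and CCT8P1 (24, 10 and 16), from a chaperonin subunit, each had intervals that spanned 0 at both times. ENSG00000228477 (44, 31 and 28), PCBP2P2 (44, 31 and 31) and SNRPGP2 (26, 19 and 18) were lower at both times, each with an interval that spanned 0.

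**Figure D5:**
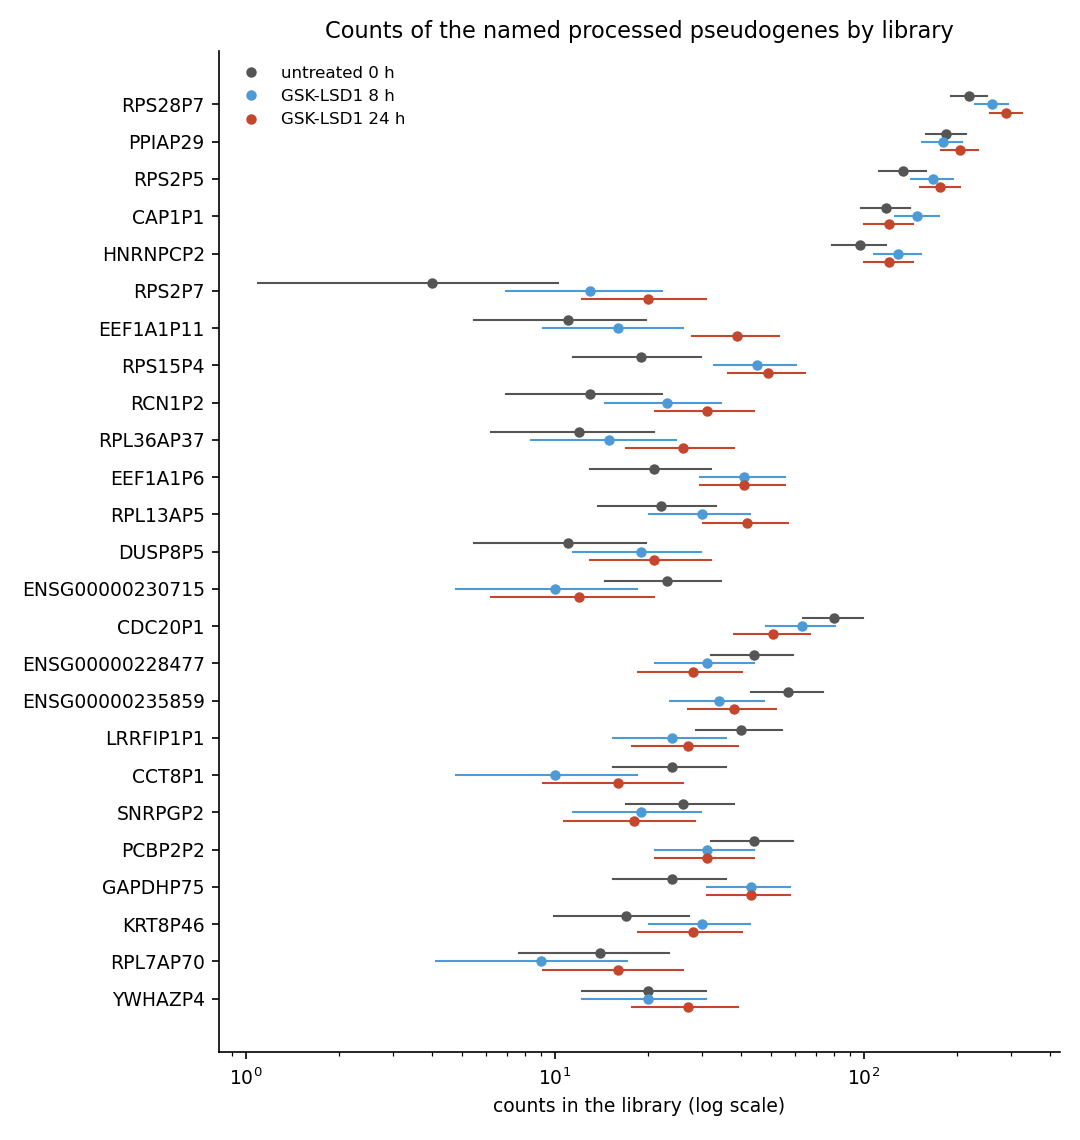
Counts of the 25 named members in each library on a log scale, with exact 95% Poisson intervals as bars. RPS28P7 is highest in every library (220, 260 and 289 counts), and RPS15P4 shows separate intervals at 0 h and at both treated times.

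At the low end, large fitted changes rested on few counts. ENSG00000223559, best matched to the tRNA export factor gene XPOT, had 12, 5 and 1 counts, PSME2P2, from a proteasome activator subunit, had 1, 5 and 11, and SRP9P1, from a signal recognition particle subunit, had 13, 8 and 3. The 4 copies of nuclear genes for oxidative phosphorylation summed to 36, 17 and 25 counts, with ratios of -0.80 (-1.72 to 0.07) and -0.44 (-1.24 to 0.34). UQCRFS1P1, from a complex III subunit, made up much of this with 14, 3 and 4. Chaperone copies (12 members) had a summed ratio of 0.19 (-0.04 to 0.42) at 8 h and 0.26 (0.04 to 0.47) at 24 h, but PPIAP29 held 56.5% of their counts, and without it the ratio at 24 h was 0.28 (-0.05 to 0.62). At 24 h nuclear and chromatin proteins (11) had 0.18 (-0.09 to 0.44), and RNA-binding proteins (12) had 0.31 (0.10 to 0.52) at 8 h and 0.13 (-0.07 to 0.34) at 24 h. With total counts the chaperone ratio at 24 h became 0.20 (-0.02 to 0.42) and the RNA-binding ratio at 8 h 0.20 (-0.01 to 0.40), both spanning 0, and the oxidative phosphorylation ratio at 8 h became -0.91 (-1.84 to -0.04), below 0. The oxidative phosphorylation values are given as a description, since the selection in part fixed their fall.

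Where a member lies in the genome bears on what its count can hold. Of the 231, 87 lie outside other annotated genes, 71 in an intron of a gene on the same strand, 51 in an intron on the other strand only and 22 over an exon of another gene. Summed ratios at 24 h were 0.24 (0.14 to 0.34), 0.28 (0.18 to 0.38), 0.23 (0.13 to 0.33) and 0.06 (-0.14 to 0.26). In same-strand introns 45 of 71 were higher at 8 h and 55 at 24 h, and outside other genes 51 of 87 at both times (50.7% and 47.2% of all features). Of the ribosomal protein members in same-strand introns, 9 of 12 were higher at 8 h and 12 at 24 h. Outside other genes it was 11 of 15 at both times, and in other-strand introns 11 of 16 at both times. Unspliced RNA of the host gene can be counted in such introns, and its part in these values was not tested. The count rule bears on the numbers by place too, as 9 ribosomal protein and 29 other members reached 10 counts only at 24 h. How these divide among the places was not counted, so the places cannot be ranked by them. A run of 8 or more A within 40 bases after the 3′ end, a trace of the poly(A) tail of the copied mRNA, was found in 5 of 48 ribosomal protein members (10.4%), 4 of 183 others (2.19%) and 2.35% of the other annotated copies.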

How the data were processed

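RNA-seq of THP-1 cells was deposited by the authors as raw counts in 1 table with 3 columns (0 h, 8 h and 24 h). Per the labels and the study's methods, libraries were made from total RNA with ribosomal RNA removed and fragments of about 300 bases, and mapped to hg38 through Seq2science, with fastp and STAR named in the submitters' processing notes. The counting tool, annotation, strand setting and treatment of shared reads are not given in the sources used here, so overlapping genes, antisense genes and near-identical copies cannot be told apart by their counts.

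Each of 213543 rows is a protein accession (73321) or an Ensembl transcript (140222), of which 128039 matched GENCODE v44 on GRCh38. All 231 members had the same transcript version there, and the sequences of all 210 single-exon members equalled the hg38 genome. A further 7 rows repeat processed pseudogene transcripts and stand at 0. Members, families and lists were chosen with earlier results of these data known. Members were named by 5 parts of a rule: 100 or more counts, the 8 largest rises and 8 largest falls at 24 h among members with 20 or more counts that moved the same way at 8 h, the 4 largest changes at 8 h that turned back, the top member of parents with 4 or more members, and those just inside and outside the threshold. TMSB4XP8, KRT8P39, ARPC3P3, H3P6, RPS28P4, RPL41P1, ENSG00000279483, RPL13P8, RPL17P19, RPL18AP3, RPS2P46, EIF3FP3, UQCRFS1P1, ENSG00000223559, PSME2P2 and SRP9P1 fall outside it and were named after their values were seen.

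Library sizes were scaled by TMM over all features (edgeR 4.0.16 in R 4.3.3; factors 1.04, 0.961 and 1.00), and log2 fold changes used a prior count of 2 scaled to library size. No differential test was fitted, as each group had 1 library. Ratios of a member or a sum are of scaled counts with exact (Clopper-Pearson) 95% intervals, a count of 0 being set to a floor of 3, and shares have Wilson intervals (statsmodels 0.14.6). Sequences were matched to GENCODE protein-coding transcripts with blastn 2.17.0. Fold changes and intervals were tested on simulated data. Alternatives were DESeq2 1.42.0 size factors, library totals (also after leaving out mitochondrial transcripts), prior counts of 0.5 and 5, filters on a count of 50, a mean of 10 or none, a loess correction on mean level, a threshold of 2, leaving out members over exons of other genes, and leaving out the top member or top 5. Added after the data were seen were TMM after the filter, members outside other genes, grouping by sequence match, counting intervals of sums and members under each scaling, the cytoskeleton family with copies of CAP1 and MSN, translation factors without EEF1A1 copies and chaperones without PPIAP29.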

Additional observations from a re-analysis of the deposited data

Results flagged for a closer look

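Transcripts of related types, outside the rule, also held counts above the 3 that a count of 0 allows: 6 features of type transcribed_processed_pseudogene and 1 of type translated_processed_pseudogene reached 10 in a library. HMGB1P5, from the gene of a chromatin protein, had 74, 73 and 80 counts at 0, 8 and 24 h, and KRT8P12 had 17, 17 and 12. NOC2LP1 had 15, 13 and 10, PDIA3P1 had 8, 10 and 13, PHB1P19 had 7, 9 and 10, ENSG00000265713 had 10, 6 and 3, and RAP1BL, the translated one, had 8, 11 and 10. These were noted as signal in rows that no comparison used, apart from the values over all features.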

How the results depend on the processing

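For the summed ratios of both groups and the ratios of named members, no alternative run on them reversed a direction whose interval excluded 0. Named members were run under the 4 other scalings only. Families, parents, places and other sums were run under the 4 other scalings and not the rest: of 40 summed ratios, both groups included, with an interval that excluded 0, 6 came to span 0 under at least 1 of them, 7 others came to exclude 0 and 0 reversed. No replicate could be left out with 1 library per time point, and depth limits most members to under 20 counts. No paired analysis was possible because each group has 1 library. Over the settings run for it, the median of ribosomal protein members ran from 0.10 to 0.51 at 8 h and from 0.06 to 0.42 at 24 h. The log2 ratio of their sums ran from 0.31 to 0.55 and from 0.35 to 0.55. The prior counts, the other filters on counts and the loess correction were not run on sums. Scaling by total counts without mitochondrial transcripts moved the median of all features at 8 h from 0.01 to -0.10, and the sums at 8 h to 0.31 for ribosomal protein and 0.065 for other members. For other members the sum at 8 h became 0.067 with total counts and 0.11 with DESeq2 size factors, which also gave 0.079 and 60.7% higher from 8 h to 24 h, beside 54.2% of all features (44.6% with TMM). Of 24 ratios of named members with an interval that excluded 0, 2 came to span 0 under another scaling, HNRNPCP2 at 24 h and RCN1P2 at 8 h. So did 9 of 36 such ratios among the 615 run for members not named by the rule, which did not cover every such member. With 50 or more counts, only 6 ribosomal protein members were left, 100% of them higher at 8 h and at 24 h and 16.7% higher from 8 h to 24 h, with medians of 0.51 at 8 h and -0.20 from 8 h to 24 h. Without a filter the medians were 0.10 and 0.056 for ribosomal protein and 0 and 0.028 for other members. The loess correction gave 66.7% of other members higher at 8 h. Limited to members outside other genes, the ribosomal protein sums gave 0.55 and 0.55.

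Counts past a log2 fold change of 1 depended on the settings, and are given for 8 h, 24 h and 24 h against 8 h in turn. Ribosomal protein members that were higher numbered 5, 7 and 3, other members higher 11, 16 and 11, and other members lower 7, 10 and 5. At 8 h other members higher fell to 7 with DESeq2 size factors and 6 with either total count. A prior of 0.5 gave 6, 9 and 4, then 20, 21 and 19, then 12, 10 and 9, and 1 ribosomal protein member lower from 8 h to 24 h. A prior of 5 gave 2, 3 and 1, then 4, 11 and 7, then 1, 6 and 2. A mean of 10, which kept 35 ribosomal protein and 122 other members, gave 2, 3 and 0, then 6, 4 and 2, then 1, 0 and 0. With 50 or more counts, which kept 6 and 16, every number was 0. Without a filter they were 47, 23 and 13, then 125, 90 and 70, then 42, 53 and 103, and 7, 4 and 31 ribosomal protein rows were lower. That setting took in 2028 more rows with 1 to 9 counts, 416 of them with ribosomal protein names, so these numbers are over far more rows. Shares of all features past the threshold were not computed under the other settings. The loess correction gave 7, 10 and 0, then 22, 24 and 7, then 1, 5 and 9, and 1 ribosomal protein member lower from 8 h to 24 h. At a threshold of 2, the numbers were 0, 0 and 0, then 0, 2 and 1, then 0, 1 and 0. Members outside other genes gave 4, 4 and 1, then 3, 3 and 3, then 2, 6 and 2, as fewer were counted. The cause of the other shifts was not tested.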
